A study of Mus musculus with 6 samples.

Results

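The MHC class I and immunoproteasome genes were taken as 10 genes of this pathway, found by their symbols in the deposited table: H2-K1, H2-D1, B2m, Tap1, Tap2, Tapbp, Psmb8, Psmb9, Psmb10 and Nlrc5. Each symbol had 1 entry, so 10 of the 21899 genes listed were described. Messenger RNA was sequenced from tumors that grew after LLC-luc cells, a Lewis lung carcinoma line carrying luciferase, were placed under the skin of male C57BL/6 mice. Laser tumors (n = 2) were irradiated without a photosensitizer, with saline in its place per the study's methods, PC-La tumors (n = 2) were injected with phycocyanin, a light-absorbing protein, before the laser, and SePC-La tumors (n = 2) were injected with selenium-enriched phycocyanin before the laser. All 6 tumors therefore received light, given in the labels as 620 nm for 10 min with injections every 5 days, and no untreated tumor was sequenced. The study's methods describe the wavelength and the interval differently from the labels. For mice they give a light dose and intensity, which imply a longer exposure than the 10 min of the labels. The study's results text gives another number of samples per group than the labels and methods, whose number was used. Nothing in the labels says whether the 2 samples of a group came from separate mice, so the p-values below measure only the spread between these samples. A whole tumor holds carcinoma and host cells together, and a gene's level cannot tell more expressing cells from more RNA per cell.

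MHC class I molecules carry short peptides from inside the cell to its surface, where cytotoxic T cells and natural killer cells inspect them. The immunoproteasome cuts proteins into such peptides, the TAP transporter moves them into the endoplasmic reticulum, and tapasin helps to load them onto a heavy chain paired with beta-2 microglobulin. Interferon gamma is the classical inducer of these genes, through IRF1 and the transactivator NLRC5 among others, and carcinoma cells often express them weakly.

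Of the 10 genes, 7 lie on chromosome 17 (coordinates in build GRCm38, GENCODE gene models), where the MHC is. Tapbp (ENSMUSG00000024308) spans 33915899 to 33929292 and H2-K1 (ENSMUSG00000061232) 33996017 to 34000347. The cluster that follows holds Psmb9 (ENSMUSG00000096727, 34181987 to 34187764), Tap1 (ENSMUSG00000037321, 34187553 to 34197225), Psmb8 (ENSMUSG00000024338, 34197721 to 34201454) and Tap2 (ENSMUSG00000024339, 34203527 to 34216321), and H2-D1 (ENSMUSG00000073411) lies farther along at 35262730 to 35267499. B2m (ENSMUSG00000060802) is on chromosome 2 at 122147686 to 122153083. Nlrc5 (ENSMUSG00000074151) and Psmb10 (ENSMUSG00000031897) are both on chromosome 8, at 94434356 to 94527272 and 105935735 to 105938444, with 11408462 bases between them. Psmb9 and Tap1 are read in opposite directions and their gene models overlap by 212 bases.

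Promoter sequence was available from RefSeq (GRCm38.p6) for 8 of the 10 genes, and the 250 bases before each start were searched on both strands for 5 patterns. The patterns and the stretches printed were chosen after matches had been looked at, so they describe these windows only. Only exact matches were counted, so a window without a match may still hold a variant of the element. For H2-D1, Tapbp, Psmb8 and Psmb9 the RefSeq start lies inside the GENCODE gene span given above, and the whole window with it. The interferon-stimulated response element core, GAAA repeated after any 2 bases, was found in B2m and in 2.98% of all 32851 promoter windows. The kappaB core, GGGA and CC with any 4 bases between them, was found in B2m, H2-K1 and H2-D1 and in 17.6% of windows. A narrower kappaB pattern that overlaps it, GGGA and TTCC with any 2 bases between them, was found in B2m alone of these genes and in 1.21% of windows. The gamma-activated site, TTCNNNGAA, an element of interferon gamma-responsive promoters, was found in Psmb8 and in 7.02% of windows. The CCAAT box was found in 6 of the genes, B2m, H2-K1, H2-D1, Psmb9, Tap1 and Tapbp, and in 33.8% of windows.

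The 250 bases before the B2m start (chr2:122147437-122147686, plus strand) are shown because they hold the interferon-stimulated response element core and the kappaB core next to each other, both in capitals, in the promoter of the most abundant of the 10 genes.
B2m: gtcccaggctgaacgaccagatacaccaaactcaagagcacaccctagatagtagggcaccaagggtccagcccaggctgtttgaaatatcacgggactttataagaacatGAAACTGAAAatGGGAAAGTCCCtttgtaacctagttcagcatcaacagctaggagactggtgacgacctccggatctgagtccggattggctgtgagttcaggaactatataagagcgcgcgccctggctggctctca

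Stretches of 30 bases around the kappaB core of H2-K1 (chr17:34000439-34000468, minus strand) and H2-D1 (chr17:35262913-35262942, plus strand) are shown because both genes encode class I heavy chains. The kappaB match is in capitals. The stretches were identical at 29 of 30 bases, and the windows, aligned on this match without gaps, at 166 of 190 bases (87.4%).
H2-K1: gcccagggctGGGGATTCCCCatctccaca
H2-D1: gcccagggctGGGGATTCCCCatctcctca

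The stretch of Psmb8 (chr17:34198088-34198117, plus strand) that matched the gamma-activated site, in capitals, is shown because Psmb8 had the largest log2 difference of the 10 genes between PC-La and Laser tumors.
Psmb8: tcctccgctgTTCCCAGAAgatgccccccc

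Levels are FPKM, the fragments of a gene scaled to the size of the library and to its length, here all exons of its gene model merged. A merged length can exceed that of the transcripts present, so comparisons of level between genes depend on the gene models. Whole reads could be recovered from the FPKM values, and the recovered totals ran from 14447792 to 17649489 per tumor. Behind the 10 genes stood between 98 reads (Psmb8, Laser replicate 2) and 41980 reads (B2m, SePC-La replicate 2) per tumor. The replicates of the Laser group were the least alike, with a correlation across genes of 0.946 against 0.992 for PC-La and 0.972 for SePC-La. Laser replicate 2 stood apart in its summed skeletal muscle markers, 111 FPKM against 16.0 in Laser replicate 1 and at most 3.99 in the other groups. The label of lung cancer tissue was checked on 4 epithelial markers, of which Krt8 and Krt18 passed the filter on low values, a mean of at least 1 FPKM, and Epcam and Cdh1 did not.

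In level order over the 6 tumors, the surface molecule came first, the peptide supply below it. B2m averaged 2626 FPKM, H2-D1 834, H2-K1 285, Tapbp 98.3 and Psmb10 66.4. Tap1 averaged 22.1 FPKM, Nlrc5 13.5, Tap2 11.04, Psmb9 10.5 and Psmb8 4.63. B2m, H2-D1 and H2-K1 each stood above the next gene in every tumor with no overlap of their ranges, and so did Psmb10 above Tap1. The ranges of Tapbp and Psmb10 overlapped, as did those of each neighbouring pair from Tap1 down to Psmb8, although Tapbp was above Psmb10, Tap1 above Nlrc5 and Psmb9 above Psmb8 within each of the 6 tumors.

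**Figure D1:**
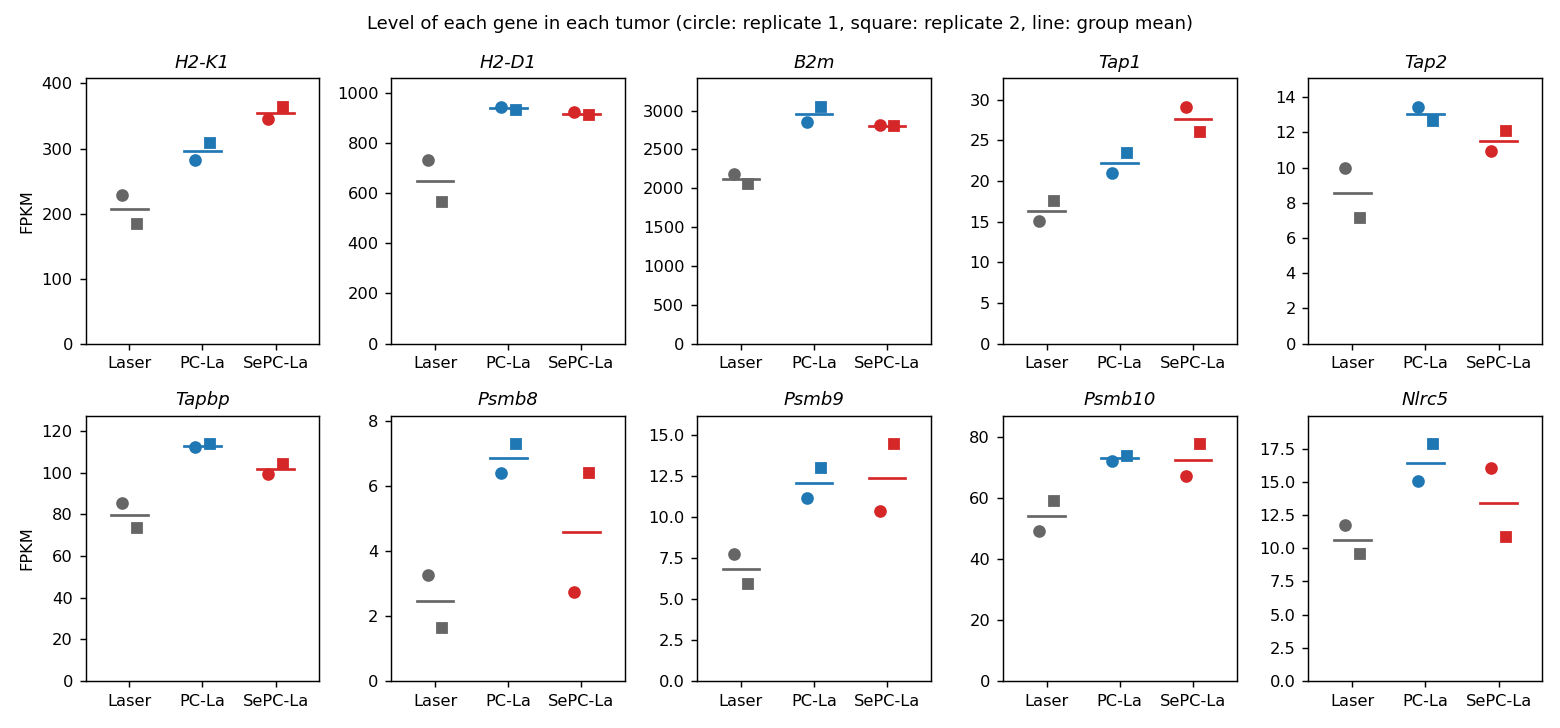
Level of each of the 10 genes in FPKM (vertical axis, from 0, a scale of its own in each panel) in the 6 tumors, by group. Circles are replicate 1, squares replicate 2 and lines group means. In every panel both PC-La tumors lie above both Laser tumors, and the SePC-La tumors lie above both Laser tumors in 8 of 10 panels, all but Psmb8 and Nlrc5.

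The first comparison, PC-La against Laser, asks what phycocyanin adds to the light. All 10 genes were higher in PC-La tumors, with log2 differences between 0.42 and 1.23 and a median of 0.53, against a median of -0.0006 over all 10853 genes tested. Both PC-La tumors were above both Laser tumors for 10 of 10 genes, where 20.4% of all genes tested were so placed, and 10 of 10 had an unadjusted p under 0.05 in limma, against 3.38% of all genes higher by that rule. After Benjamini-Hochberg adjustment over all genes, no gene passed 0.05, neither among the 10 nor in the whole table (0% of 10853), and the adjusted p of the 10 genes ran from 0.650 to 0.753. Leaving out PC-La replicate 1 or 2 leaves PC-La with 1 tumor, assumed to vary like the others. The median log2 difference of the 10 genes was then 0.53 or 0.48. Fewer genes then had an unadjusted p under 0.05, among the 10 and in the whole table.

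SePC-La against Laser asks the same of selenium-enriched phycocyanin, with the same Laser tumors. All 10 log2 differences were again above 0, from 0.29 to 0.79, with a median of 0.47 against -0.06 over all genes tested. Both SePC-La tumors were above both Laser tumors for 8 of 10 genes, where 15% of all genes were so placed, and 7 of 10 had an unadjusted p under 0.05 in limma against 4.9% of all genes higher by that rule. Tap2, Psmb8 and Nlrc5 were the 3 that did not. No gene of the 10 or of the table passed an adjusted p of 0.05 (0% of 10853), and the smallest adjusted p among the 10 was 0.376. The count of 7 was 4 without PC-La replicate 1, without PC-La replicate 2 or without SePC-La replicate 2, and 4 when only the Laser and SePC-La tumors were fitted. It was also 4 with quantile normalization.

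SePC-La against PC-La compares the photosensitizers at the same light. They differ in selenium enrichment and, by the study's measurements, also in their chromium, manganese and zinc content. None of the 10 genes had an unadjusted p under 0.05 in limma, where 9.91% of all genes tested were higher and 14.4% lower by that rule, and none passed after adjustment (0% of all genes). With only these 4 tumors fitted 637 genes of the table passed after adjustment, and 639 or 643 without Laser replicate 1 or 2, but none of the 10. The median log2 difference of the 10 genes was -0.05, against -0.07 over all genes, and with median-ratio scaling it was 0.0545. H2-K1 and Tap1 then had an unadjusted p under 0.05 in limma, 2 of 10 where 2594 of 10842 genes tested did. H2-K1 and Tap1 were above both PC-La tumors in both SePC-La tumors, 2 of 10 genes where 26% of all genes were so placed. H2-D1, B2m, Tap2, Tapbp and, barely, Psmb8 were below in both, 5 of 10 where 39.5% of all genes were. The log2 differences of H2-D1, B2m and Psmb10 turned positive with median-ratio scaling. The shares of 2 of 10 and 5 of 10 are near the background, and the intervals below give the size of difference the 4 tumors allow.

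**Figure D2:**
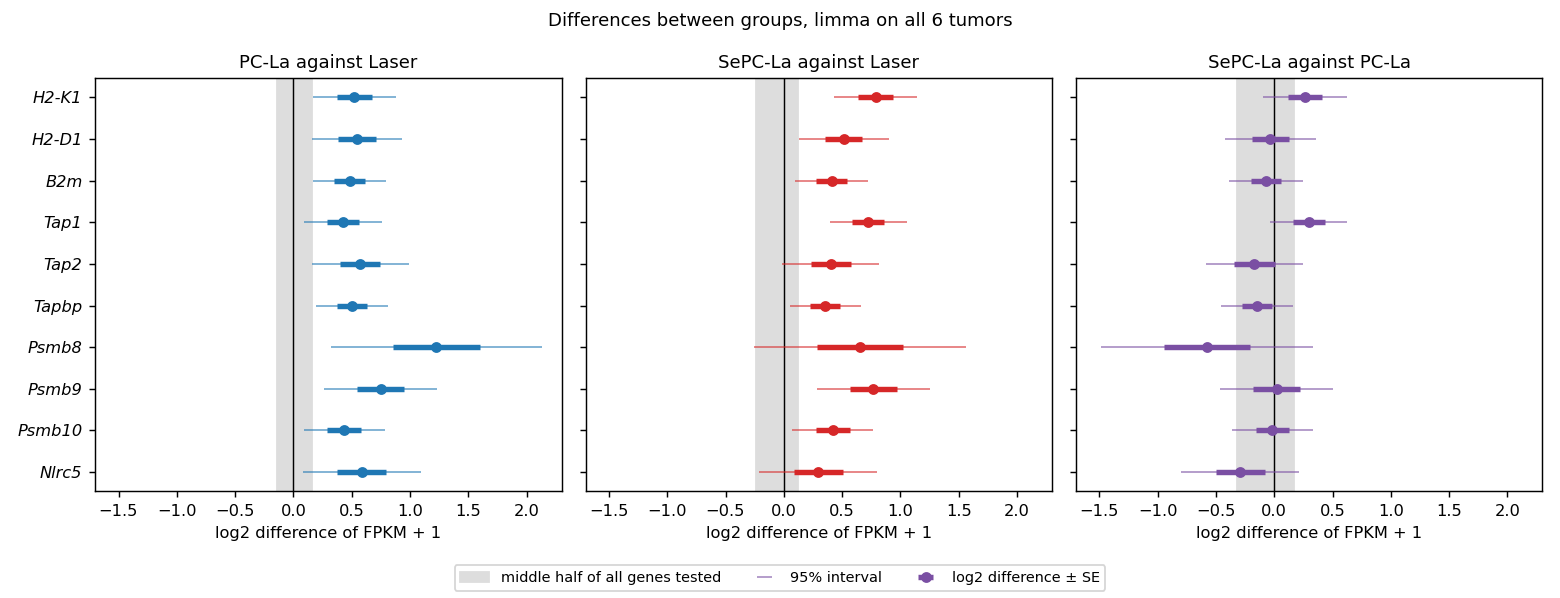
Log2 difference of FPKM + 1 (horizontal axis) for each of the 10 genes in the 3 comparisons, from limma on all 6 tumors. Points are estimates, thick bars the SE, thin bars the 95% interval, and the grey band the interquartile range of all 10853 genes tested. Against Laser all 10 points lie right of the grey band in both panels, while in SePC-La against PC-La all 10 intervals include 0.

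Among the surface molecule genes, H2-K1 encodes the K heavy chain of class I. Its level was 228 and 184 FPKM in the Laser tumors, 282 and 309 in the PC-La tumors and 345 and 364 in the SePC-La tumors. The 3 groups did not overlap, with Laser lowest and SePC-La highest. By limma the log2 difference from Laser was 0.52 ± 0.15 (SE, n = 2 and 2, adjusted p = 0.722) for PC-La and 0.79 ± 0.15 (adjusted p = 0.376) for SePC-La, and SePC-La differed from PC-La by 0.26 (95% interval -0.10 to 0.62).

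H2-D1, the D heavy chain, measured 733 and 562 FPKM in Laser tumors, 944 and 932 in PC-La tumors and 921 and 913 in SePC-La tumors. Both treated groups were above Laser, and within each of them the replicates differed by far less than in Laser. The log2 difference from Laser was 0.55 ± 0.16 for PC-La (limma adjusted p = 0.749) and 0.51 ± 0.16 for SePC-La (limma adjusted p = 0.376), while SePC-La differed from PC-La by -0.03 (95% interval -0.42 to 0.35).

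B2m encodes beta-2 microglobulin, the invariant light chain that every class I heavy chain needs. Its level was 2180 and 2049 FPKM in Laser tumors, 2859 and 3049 in PC-La tumors and 2820 and 2796 in SePC-La tumors. PC-La averaged 39.7% above Laser and SePC-La 32.8% above it. On the log2 scale these differences were 0.48 ± 0.13 (limma adjusted p = 0.690) and 0.41 ± 0.13 (limma adjusted p = 0.378), and between the treated groups the difference was -0.07 (95% interval -0.39 to 0.24).

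The ratio of H2-K1 to H2-D1 in FPKM was 0.311 and 0.328 in Laser tumors, 0.299 and 0.332 in PC-La tumors and 0.374 and 0.399 in SePC-La tumors. The SePC-La tumors were above the other 4, whose ranges overlapped. The ratio of H2-D1 to B2m overlapped between all groups, at 0.274 to 0.336. Of the 50-base windows of their transcripts, 9.63% for H2-K1 and 12.8% for H2-D1 also occur in other genes, mostly other class I heavy chains, so the share of reads given to each heavy chain gene is uncertain.

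Tap1 and Tap2 encode the subunits of the peptide transporter. Tap1 measured 15.1 and 17.6 FPKM in Laser tumors, 21.03 and 23.5 in PC-La tumors and 29.1 and 26.1 in SePC-La tumors, 3 groups that did not overlap. Its log2 difference from Laser was 0.42 ± 0.14 for PC-La (limma adjusted p = 0.753) and 0.72 ± 0.14 for SePC-La (limma adjusted p = 0.376). SePC-La was 0.30 above PC-La (95% interval -0.03 to 0.63).

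Tap2 was 9.99 and 7.12 FPKM in Laser tumors, 13.5 and 12.7 in PC-La tumors and 10.9 and 12.1 in SePC-La tumors. Here the PC-La tumors were highest and the Laser tumors lowest, without overlap. The log2 difference from Laser was 0.57 ± 0.17 for PC-La (limma adjusted p = 0.753) and 0.40 ± 0.17 for SePC-La (limma adjusted p = 0.415), and SePC-La against PC-La was -0.17 (95% interval -0.59 to 0.25). The FPKM ratio of Tap1 to Tap2 was 2.66 and 2.16 in SePC-La against 1.56 and 1.86 in PC-La, while the Laser tumors, at 1.51 and 2.47, spanned most of that range.

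Tapbp encodes tapasin, which holds empty class I molecules at the transporter. It was at 85.7 and 73.7 FPKM in Laser tumors, 112 and 114 in PC-La tumors and 99.6 and 104 in SePC-La tumors, with no overlap between the 3 groups and PC-La highest. It had the smallest unadjusted p of the 10 genes in PC-La against Laser, 0.00662 by limma, with a log2 difference of 0.50 ± 0.13 and an adjusted p of 0.650. For SePC-La the difference from Laser was 0.36 ± 0.13 (limma adjusted p = 0.385), and SePC-La against PC-La was -0.15 (95% interval -0.45 to 0.16).

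Strand use in counting is not given in the sources used here, so reads from genes on the opposite strand cannot be told apart where gene models overlap. Such or same-strand overlaps covered 29% of the exon length of Tapbp, 18.5% of Tap2, 14.7% of Psmb8, 5.79% of Psmb9 and 3.87% of Tap1, under 1% of Nlrc5 and none of H2-K1, H2-D1, B2m and Psmb10.

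Psmb8, Psmb9 and Psmb10 encode the catalytic subunits beta-5i, beta-1i and beta-2i, which replace the constitutive subunits encoded by Psmb5, Psmb6 and Psmb7. Psmb8 was at 3.26 and 1.64 FPKM in Laser tumors, 6.42 and 7.29 in PC-La tumors and 2.74 and 6.40 in SePC-La tumors. The PC-La tumors were above the other 4, but SePC-La replicate 2 was nearly equal to PC-La replicate 1. The SePC-La replicates lay far apart, with replicate 1 within the Laser range. PC-La averaged 2.80 times Laser, a log2 difference of 1.23 ± 0.37 (limma adjusted p = 0.753). Psmb8 alone of the 10 genes combined an absolute log2 difference over 1 with an unadjusted p under 0.05, the study's kind of screen, which 1.29% of all genes met in PC-La against Laser. In SePC-La against Laser none of the 10 met it (0.682% of all genes), nor did any in SePC-La against PC-La (2.98%). Single tumors decided this: Psmb8 no longer met it in PC-La against Laser without Laser replicate 2 (0.88) or PC-La replicate 2 (1.15, where the p missed), and met it without SePC-La replicate 1 against Laser (1.14) and without SePC-La replicate 2 against PC-La (-1.07). The SePC-La difference from Laser was 0.65 ± 0.37 (limma adjusted p = 0.505), from 0.16 to 1.14 with 1 tumor left out. That from PC-La was -0.58 (95% interval -1.48 to 0.33, the widest of the 10 genes), from -1.07 to -0.08 with 1 tumor left out.

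Psmb9 measured 7.74 and 5.94 FPKM in Laser tumors, 11.2 and 13.0 in PC-La tumors and 10.4 and 14.5 in SePC-La tumors. Both treated groups were above Laser and overlapped each other. The log2 difference from Laser was 0.75 ± 0.20 for PC-La (limma adjusted p = 0.684) and 0.77 ± 0.20 for SePC-La (limma adjusted p = 0.376), and between the treated groups it was 0.02 (95% interval -0.46 to 0.51).

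Psmb10, the most abundant of the 3 inducible subunits, was at 49.0 and 58.9 FPKM in Laser tumors, 72.2 and 73.8 in PC-La tumors and 67.2 and 77.6 in SePC-La tumors. It too was above Laser in all 4 treated tumors. Its log2 difference was 0.43 ± 0.14 for PC-La (limma adjusted p = 0.753) and 0.42 ± 0.14 for SePC-La (limma adjusted p = 0.382), with -0.02 between the treated groups (95% interval -0.36 to 0.33).

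The constitutive subunits had no unadjusted p under 0.05 in any of the 3 comparisons. In PC-La against Laser their log2 differences were 0.04 for Psmb5, 0.22 for Psmb6 and 0.03 for Psmb7, and in SePC-La against Laser they were 0.31, 0.38 and 0.32. The share of Psmb8 in the FPKM sum of Psmb8 and Psmb5 was 11.1% and 7.14% in Laser tumors, 20.0% and 24.04% in PC-La tumors and 9.56% and 15.9% in SePC-La tumors. For Psmb9 with Psmb6 the share was 12.6% and 11.4%, then 16.0% and 18.4%, then 15.8% and 16.0% in the same group order. Psmb10 made up the larger part of its pair's FPKM in every tumor, 69.7% and 68.4% in Laser tumors, 74.3% and 75.1% in PC-La tumors and 69.3% and 71.6% in SePC-La tumors. Merged exon lengths differed within pairs, at 3381 bases for Psmb8 and 899 for Psmb5, and 3660 for Psmb9 and 1872 for Psmb6. Psmb10 had 1705 bases and Psmb7 3421. The size of a pair's share rests on these lengths, while its order between tumors does not. Both PC-La tumors had a higher share than the other 4 in the Psmb8 and Psmb10 pairs, and in the Psmb9 pair PC-La replicate 1 and SePC-La replicate 2 were nearly equal.

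The mean over the 3 pairs of the log2 ratio of inducible to constitutive subunit, taken within each tumor on FPKM + 1, was -1.39 and -1.59 for the Laser tumors, -0.88 and -0.68 for the PC-La tumors and -1.33 and -1.08 for the SePC-La tumors. On this mean the groups did not overlap, and PC-La stood highest. For SePC-La against Laser the Psmb9/Psmb6 ratio separated the groups, while the Psmb8/Psmb5 and Psmb10/Psmb7 ratios overlapped. The share of the inducible subunits in the FPKM sum of all 3 pairs also overlapped there, at 37.2% and 41.3% in Laser and 42.0% and 41.2% in SePC-La, and was 45.1% and 47.2% in PC-La. PC-La was 0.70 above Laser, SePC-La 0.28 above Laser and SePC-La 0.43 below PC-La. By the two-sided exact permutation test p was 0.333 in each of the 3 comparisons, the smallest that 2 against 2 tumors allow, so no difference could reach 0.05 in this test.

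**Figure D3:**
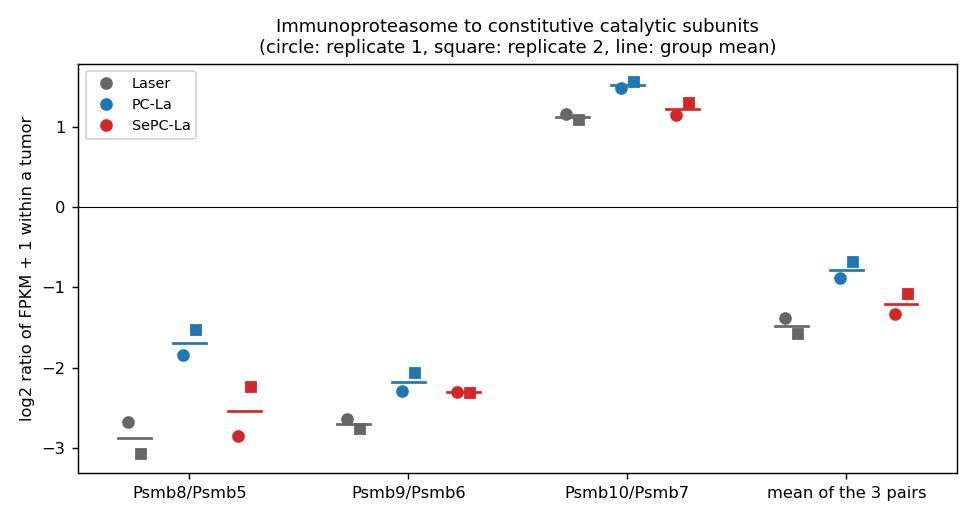
Log2 ratio of FPKM + 1 between each immunoproteasome subunit and its constitutive counterpart within a tumor (vertical axis), for the 3 pairs and their mean. Circles are replicate 1, squares replicate 2, lines group means. PC-La tumors are highest in each pair, barely so for Psmb9/Psmb6, and for the mean they lie at -0.88 and -0.68 against -1.39 and -1.59 in Laser.

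Nlrc5 encodes the transactivator that drives class I promoters. Its level was 11.7 and 9.54 FPKM in Laser tumors, 15.1 and 17.8 in PC-La tumors and 16.1 and 10.8 in SePC-La tumors. PC-La was above Laser, whereas the SePC-La tumors split, one within the PC-La range and one within the Laser range. The log2 difference from Laser was 0.59 ± 0.21 for PC-La (limma adjusted p = 0.753) and 0.29 ± 0.21 for SePC-La (limma adjusted p = 0.577). SePC-La against PC-La was -0.29 (95% interval -0.80 to 0.21).

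The SePC-La replicates thus differed in opposite ways for different members. Psmb8, Psmb9 and Psmb10 were higher in SePC-La replicate 2, Nlrc5 and Tap1 in SePC-La replicate 1, and for H2-D1 and B2m the replicates differed by less than 1%. When the 10 genes were standardized over the 6 tumors and averaged, the Laser tumors lay at -0.83 and -1.40 SD units, the PC-La tumors at 0.52 and 0.77 and the SePC-La tumors at 0.36 and 0.57. The correlation of a gene with this mean over the 6 tumors ran from 0.736 for Nlrc5 and 0.776 for Tap1 to 0.990 for B2m, a mean to which each gene itself contributes.

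Outside the 10 genes, the 6 whose log2 level followed this mean most closely over the 6 tumors were Bst2 (Pearson r = 0.983, Spearman rho = 0.771), Irf1 (0.968 and 0.829), Nectin2 (0.968 and 0.886), Tmem126a (0.965 and 0.771), Arl5c (0.964 and 0.943) and Zfp296 (0.963 and 1). Bst2 encodes tetherin and Irf1 a transcription factor, both known as interferon-induced genes. Bst2 measured 114 and 100.0 FPKM in Laser tumors, 178 and 166 in PC-La tumors and 157 and 167 in SePC-La tumors. Arl5c and Zfp296 lay near the filter of 1 FPKM, at 1.17 and 0.711 and at 0.968 and 0.640 FPKM in Laser tumors. Neither averaged 1 FPKM in the Laser tumors, so both passed the filter only through the treated tumors. In all 6 of these genes the Laser tumors were the lowest of the 6 tumors, so the values describe that shared step between Laser and the rest, over 6 tumors and 10853 genes searched.

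The rest of the pathway was described by 6 lists that hold none of the 10 genes. Of the other class I heavy chains, 9 of 15 passed the filter, all 9 were above 0 in PC-La against Laser (median log2 difference 0.32) but 0 had an unadjusted p under 0.05. In SePC-La against Laser 4 of 9 were higher by that rule, against 4.9% of all genes, H2-Q6 by 0.86, H2-Q4 by 0.81, H2-Q7 by 0.67 and H2-T22 by 0.38 on the log2 scale. H2-Q4 was at 29.2 and 14.1 FPKM in Laser tumors, 33.5 and 34.2 in PC-La tumors and 34.4 and 38.7 in SePC-La tumors. Stretches of H2-K1 transcripts also occur in H2-Q4 and H2-Q7, and stretches of H2-D1 transcripts in H2-Q6 and H2-Q7. H2-Q6 (0.897 to 4.395 FPKM) and H2-Q7 (1.421 to 3.846 FPKM) lay far below H2-D1 (562 to 944 FPKM). Whether reads from H2-K1 or H2-D1 were given to H2-Q4, H2-Q6 or H2-Q7 was not tested, so the differences of these genes are uncertain. In SePC-La against PC-La 1 of 9 was lower, near the 14.4% of all genes, Mr1 by -0.65, a class I-like molecule that presents vitamin B metabolites.

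Peptide trimming and loading was covered by 5 genes. In PC-La against Laser 2 of 5 were higher at an unadjusted p under 0.05, against 3.38% of all genes, the peptide-trimming protease gene Erap1 (log2 difference 0.34) and Tapbpl, a tapasin-related peptide editor (0.49), and the median of the 5 was 0.38. In SePC-La against Laser none of the 5 did, with a median of 0.04, and the same 2 genes were lower at an unadjusted p under 0.05 in SePC-La than in PC-La, against 14.4% of all genes, Erap1 by -0.42 and Tapbpl by -0.43. Tapbpl stood at 12.2 and 11.1 FPKM in Laser tumors, 16.4 and 17.1 in PC-La tumors and 12.6 and 11.9 in SePC-La tumors.

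Among 5 proteasome activator and assembly genes, Psme1, a subunit of the PA28 activator, was higher at an unadjusted p under 0.05 in both comparisons with Laser, by log2 differences of 0.37 for PC-La and 0.38 for SePC-La. That was 1 of 5 in each, where 3.38% and 4.9% of all genes were higher by that rule. Psme2, the partner of Psme1, differed by 0.32 and 0.35 without passing. Psme3, the nuclear PA28 gamma, was higher by 0.43 in SePC-La than in PC-La, 1 of 5 where 9.91% of all genes were higher by that rule. The list medians were 0.04, 0.18 and 0.03 in the 3 comparisons in the order above.

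Of 14 regulators of class I genes, 13 passed the filter, and Ifng, the gene of interferon gamma, did not. Irf1 was at 31.8 and 26.5 FPKM in Laser tumors, 40.9 and 50.3 in PC-La tumors and 42.4 and 41.2 in SePC-La tumors, so both treated groups were above Laser. In PC-La against Laser 4 of 13 were higher at an unadjusted p under 0.05, against 3.38% of all genes, among them Stat2 (log2 difference 0.66), Irf1 (0.62) and Irf9 (0.61), all in the interferon signalling chain. In SePC-La against Laser 2 of 13 were, against 4.9% of all genes, Irf1 (0.51) and Socs1, a feedback inhibitor of that chain (0.43). In SePC-La against PC-La 3 of 13 were lower, where 14.4% of all genes were, among them Stat2 by -0.56 and Rfx5, a partner of NLRC5 at class I promoters, by -0.43. The list medians were 0.16, 0.02 and -0.27.

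Receptors for class I were represented by 8 genes, of which Klra2, a Ly49 family receptor gene, had an unadjusted p under 0.05. It was higher in PC-La than in Laser by 0.83 on the log2 scale, 1 of 8 where 3.38% of all genes were higher by that rule. In SePC-La it was lower than in PC-La by -0.78, 1 of 8 and near the 14.4% of all genes that were lower. The coreceptor genes Cd8a and Cd8b1 did not pass in any comparison. None of the genes in the 6 lists had an adjusted p under 0.05 in limma in any comparison.

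**Figure D4:**
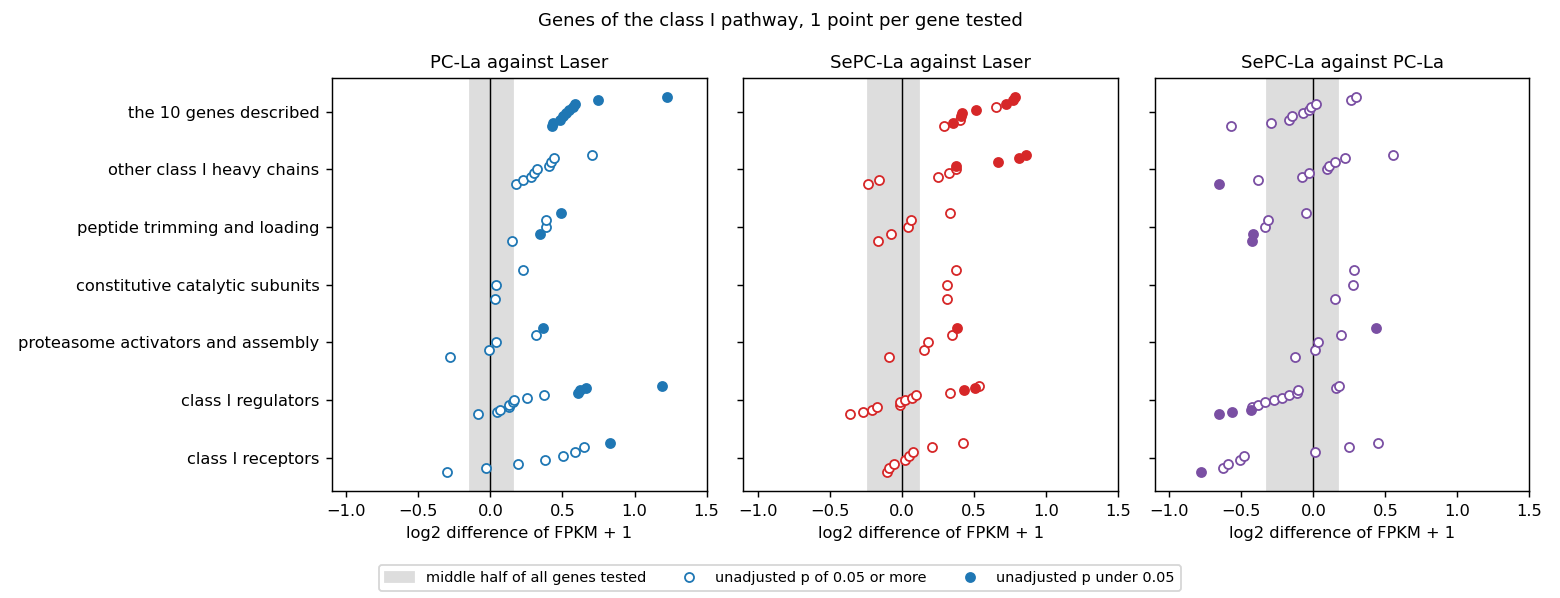
Log2 difference of FPKM + 1 (horizontal axis) for the 10 genes and for the tested genes of 6 lists of the class I pathway, 1 point per gene, in the 3 comparisons. Filled points have an unadjusted limma p under 0.05 and the grey band is the interquartile range of all genes tested. The 10 genes are filled in 10 of 10 cases in PC-La against Laser, 7 of 10 in SePC-La against Laser and 0 of 10 in SePC-La against PC-La.

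Markers of other cells moved with these genes in part. The summed FPKM of 4 leukocyte markers was 127 and 102 in Laser tumors, 152 and 170 in PC-La tumors and 121 and 158 in SePC-La tumors, and that of 8 macrophage markers was 651 and 701, 888 and 945, and 381 and 721. The macrophage sum was mostly C1qa, C1qb and C1qc, and 3 of its 8 markers had negative log2 differences in PC-La against Laser, Mrc1 (-0.92), Itgam (-0.64) and Cd68 (-0.24), none past the test. Both sums were above Laser in both PC-La tumors, as were those of NK cell (62.7 and 35.4 against 28.0 and 32.1), dendritic cell (15.8 and 22.8 against 11.8 and 4.10), endothelial (19.8 and 27.2 against 19.4 and 16.0) and fibroblast markers (1278 and 1156 against 921 and 247). Taken singly, 4 of 4 leukocyte, 5 of 8 macrophage and 3 of 4 tested NK cell markers were so placed. Of the others tested, 1 of 2 dendritic cell, 1 of 4 endothelial and 2 of 5 fibroblast markers were. Over all genes tested the share was 20.4%, near that of the endothelial markers. The dendritic cell sum was mostly Itgax, and Flt3, Xcr1 and Zbtb46 did not pass the filter. The fibroblast sum was mostly Col3a1 and Dcn. In SePC-La against Laser the leukocyte, macrophage, NK, dendritic and fibroblast sums overlapped, whereas neutrophil sums were higher (331 and 435 against 148 and 31.9). Endothelial sums were higher too (28.9 and 21.7). Both SePC-La tumors were above both Laser tumors for 2 of 4 tested endothelial markers, where 15% of all genes tested were so placed. Erythroid markers were higher in both treated groups (239 to 816 against 12.6 to 115) and skeletal muscle markers lower (0.0771 to 3.99 against 16.0 to 111). T cell sums (4.12 to 12.2), B cell sums (0.239 to 1.33, with Cd79a and Ms4a1 among the markers at 0 in some tumors) and epithelial sums (188 to 276) overlapped in both comparisons with Laser. No marker was at 0 in all 6 tumors, and the part of these cells in the levels of the 10 genes was not tested.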

How the data were processed

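RNA was sequenced from 6 mouse tumors, 2 per group, grouped by the treatment in the labels. The authors deposited 1 table of FPKM values per gene and sample. The submitters' processing notes name HISAT2 2.0.5, HTSeq 0.9.1, DESeq 1.30.0 and build mm9 without roles. The unit was settled from the values: with merged exon lengths of GENCODE (GRCm38) they gave whole reads (within 0.02 of a whole number) in all 6 samples for 97.8% of 16768 genes. Reads are not molecules, and their number limits the precision of low genes.

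Genes averaging 1 FPKM or more over the 6 samples (10853, all 10 described among them) were tested on log2(FPKM + 1) with limma 3.58.1 in R 4.3.3, with a mean per group, trend and robust moderation, two-sided, and Benjamini-Hochberg adjustment over all genes tested. A fold change on this scale understates that of low genes. The study screened genes with a count tool, for which the table's unit is unsuited. A mean ± SD over 2 samples is replaced by both values. The subunit ratio was tested by exact permutation. The fit was also run on simulated data, with seeded log2 differences larger than those of the 10 genes. That run is a check of the code and does not show the power of the fit here.

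The 10 genes, the pathway lists and the markers were chosen with earlier results of these data known. Named outside the 10 were the constitutive subunits, Psme1, Psme2, Irf1, list genes at an unadjusted p under 0.05, and the 6 genes most correlated with the mean of the 10. Some genes of these lists are counted but not reported here by name. Genes named with examples of levels (Bst2, Arl5c, Zfp296, H2-Q4, Tapbpl), the receptors Cd8a and Cd8b1 and Ifng were picked after their values were seen. Alternatives were another pseudocount, filter, scaling, moderation or sample set, a replicate block, and limma's voom on the recovered reads, which was chosen after seeing the data. No genome sequence was used, and promoters came from a RefSeq table.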

Additional observations from a re-analysis of the deposited data

How the results depend on the processing

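With 2 tumors a group, single libraries decide many values. In PC-La against Laser the count of the 10 genes at an unadjusted p under 0.05 was 9 to 10 under all alternatives that kept every sample, 9 with a minimum mean of 5 FPKM, which drops Psmb8. With 1 sample left out the number of genes called changed widely, among the 10 and in the whole table. The median log2 difference of the 10 genes then ran from 0.44 to 0.70. In SePC-La against Laser the count of 7 was 4 with quantile normalization and 4 with only the 4 samples compared, and ran from 4 to 8 with a sample left out, where the median ran from 0.34 to 0.62. In SePC-La against PC-La the median of -0.05 was -0.19 with quantile normalization and 0.0545 with median-ratio scaling. That scaling also gave 2 genes, H2-K1 and Tap1, at an unadjusted p under 0.05, where 2594 of 10842 genes tested were called. Leaving out a sample gave a median from -0.10 to -0.03. Signs turned in that comparison for B2m (0.034), H2-D1 (0.075) and Psmb10 (0.090) with median-ratio scaling. With 1 sample left out Psmb9 ran from -0.20 to 0.24 and turned without PC-La replicate 1 (-0.08) or SePC-La replicate 2, and Psmb10 ran from -0.12 to 0.088 and turned without PC-La replicate 2 (0.0001) or SePC-La replicate 1. The causes were not tested. With a sample left out the subunit ratio differed by 0.60 to 0.80, 0.15 to 0.40 and -0.55 to -0.30 in the 3 comparisons, in the order of the report. With voom on recovered reads the medians were 0.53, 0.48 and -0.06, and the counts 10, 7 and 0.

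Replicate numbers are shared by the groups. The deviations of same-numbered samples correlated at 0.086 (PC-La and Laser), -0.428 (SePC-La and Laser) and -0.177 (SePC-La and PC-La), so the numbers were not taken to pair the samples. A replicate block gave 10, 5 and 0 of the 10 genes at an unadjusted p under 0.05 and left the medians as they were.

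Depth limits Psmb8 most, with 98 to 378 reads per tumor.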
